A study of Mus musculus with 6 samples.

Results

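Cmss1, Lars2, Gphn, Cdk8, Camk1d and Gm19951 are 6 of the 34099 genes counted in single-cell RNA-seq (scRNA-seq) libraries of orthotopic hepatocellular carcinoma (HCC). They were chosen by symbol from an earlier look at these same libraries, in which they stood higher in stress mice than in control mice. Values that set stress mice against control mice are therefore given for the 6 as a description, without a test, and nothing is supported with them. All mice were male wild-type C57BL/6J animals, kept specific pathogen-free and 8 weeks old when obtained, and all carried tumors of H22, a murine HCC cell line, injected into the left lateral lobe of the liver. Stress mice (n = 3) were exposed to chronic unpredictable mild stress (CUMS) for 21 days, and control mice (n = 3) received the same tumor cells and no stressor. Each mouse gave 1 library from dissociated tumor tissue, prepared on the 10x Genomics Chromium platform.

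A unique molecular identifier (UMI) marks 1 captured RNA molecule. The 58794 cells that carry the authors' annotation held 149558935 to 187728350 UMIs per mouse, and any pair of libraries shared 13 to 40 cell barcodes. According to the matrix headers, control matrices came from Cell Ranger 9.0.0 and stress matrices from Cell Ranger 7.1.0, so effects of the software release and of stress on the counts cannot be told apart. The annotation gives 10 cell types and 28 clusters. Defining markers were highest in the named type for all markers listed for endothelial cells (ECs), NK/T cells, DCs, B cells, neutrophils and HSCs, for 3 of 4 monocyte markers, 3 of 5 tumor cell markers and 2 of 4 inflammatory myeloid cell markers, and for 0 of 2 M-MDSC markers, so M-MDSCs are named here by their label only.

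The 6 genes have no known function in common. Cmss1 encodes a protein linked to the small ribosomal subunit, Lars2 charges leucine onto mitochondrial tRNA, and Gphn encodes gephyrin, a scaffold of inhibitory synapses that also makes the molybdenum cofactor. Cdk8 is the kinase of the Mediator complex, Camk1d is a calcium- and calmodulin-dependent kinase, and Gm19951 is a long intergenic noncoding RNA of unknown function.

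In GENCODE M21 on GRCm38, the members lie on 5 chromosomes. Cmss1 (ENSMUSG00000022748) spans chr16:57302000-57606864 on the minus strand, and Camk1d (ENSMUSG00000039145) spans chr2:5293457-5714515 on the minus strand. The other 4 lie on the plus strand, Lars2 (ENSMUSG00000035202) at chr9:123366927-123462666, Cdk8 (ENSMUSG00000029635) at chr5:146231230-146302874, Gphn (ENSMUSG00000047454) at chr12:78226379-78684772 and Gm19951 (ENSMUSG00000113136) at chr12:99643093-99647221. Of the Cmss1 span of 304865 bases, 0.655% is exonic, and the corresponding share is 0.818% for Gphn and 1.76% for Camk1d. The median over all matched genes is a span of 12520 bases with 20.7% exonic sequence, so these 3 are long, intron-rich genes, at the 98.2, 99.1 and 99.0 percentiles of span. Lars2 and Cdk8 span 95740 and 71645 bases, 11.6% and 13.7% exonic, at the 90.7 and 87.3 percentiles, so 5 of the 6 are far longer than the median. Gm19951 is short, with 4129 bases, at the 24.3 percentile. Of 11 genes that overlap a member, 4 are in the matrices. Filip1l, 4921517D16Rik and Gm49579 overlap Cmss1, and Gm48226 overlaps Gphn, all on the opposite strand. Of those absent from the matrices, Gm48225, Gm48231 and Gm48230 in Gphn and Gm15739 in Cdk8 lie on the same strand as the member. Gm18899 and Gm48224 in Gphn and Gm13216 in Camk1d lie on the opposite strand. The sources used here do not say how counting treated reads of such a pair, and their part in the members' counts was not tested.

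The promoters of 4 members are shown because the members move together in the comparisons that follow. Sequences are from RefSeq on GRCm38.p6, 150 bases that end 5 bases after the RefSeq start, and all 6 members were found in the table. Capitals mark matches, on either strand, to the TATA box core (TATAAA), the CCAAT box, the GC box (GGGCGG), the cAMP response element or CRE (TGACGTCA) and the core of the glucocorticoid response element (AGAACA). No match overlaps another in the windows shown.
Cmss1, chr16:57606863-57607012, minus strand: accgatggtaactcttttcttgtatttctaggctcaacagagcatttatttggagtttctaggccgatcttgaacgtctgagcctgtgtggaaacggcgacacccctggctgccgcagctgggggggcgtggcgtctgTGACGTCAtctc
Lars2, chr9:123366782-123366931, plus strand: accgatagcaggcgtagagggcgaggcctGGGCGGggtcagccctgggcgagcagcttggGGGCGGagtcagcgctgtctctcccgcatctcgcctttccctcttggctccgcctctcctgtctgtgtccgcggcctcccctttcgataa
Gphn, chr12:78226510-78226659, plus strand: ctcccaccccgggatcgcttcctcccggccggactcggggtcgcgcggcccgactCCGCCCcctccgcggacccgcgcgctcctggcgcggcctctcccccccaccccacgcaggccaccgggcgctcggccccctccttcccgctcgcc
Gm19951, chr12:99642951-99643100, plus strand: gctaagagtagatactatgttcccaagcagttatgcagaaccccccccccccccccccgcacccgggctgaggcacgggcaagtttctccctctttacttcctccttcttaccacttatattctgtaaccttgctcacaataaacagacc
In the full 300-base windows, the GC box was found in 4 members (Lars2, Gphn, Cdk8 and Camk1d) and in 35.7% of the 32851 promoters of the table. The CRE was found in Cmss1 alone of the 6 and in 1.79% of all promoters, the glucocorticoid response core in Lars2 alone and in 18.97%, and the TATA box core in 0 members and in 13.6%. CCAAT was found in 1 of the Camk1d promoters and in 37.4% of all. Gm19951 held none of the 5 motifs, so no motif searched was common to the 6. Gphn had 42 CpG dinucleotides in its window, Cdk8 31 and Gm19951 3, against a median of 7 over all promoters.

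The mature transcripts of the 6 share no long stretch either. Aligned against one another with blastn, 0 of the 15 pairs shared 100 bases at 90% identity, and 0 shared 50 bases at 80% identity. One stretch of Lars2 stood out against the ribosomal RNA gene models that were listed for comparison. In its last exon, exon 21 of 21 and within the 3′ UTR, 72 bases at chr9:123462048-123462119 matched Gm15564 at 98.6% identity. Gm15564 is an antisense gene model on the minus strand at chr16:35966752-35983230 and the only one of the 8 listed models in these matrices.

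Together the 6 transcripts took 0.0619%, 0.0741% and 0.0610% of all UMIs of annotated cells in control mice 1, 2 and 3. The shares were 0.264%, 0.395% and 0.467% in stress mice 1, 2 and 3, the order in which each mouse is given throughout. Every stress mouse lay above every control mouse, as the choice of the genes implies. Within that total, Gphn gave the most UMIs and Gm19951 the fewest in every mouse. Gphn supplied 27.5% to 29.6% of the UMIs of the 6, Camk1d 22.1% to 26.7%, Cmss1 16.7% to 19.4%, Lars2 16.5% to 21.02%, Cdk8 5.62% to 7.91% and Gm19951 1.58% to 2.80%.

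The level of a transcript, its summed UMIs over the cells of a mouse scaled to all UMIs of those cells (CPM), was highest in ECs for 4 of the 6, and the order of the other types differed between members and mice. ECs line the blood vessels of the tumor. In ECs, Cmss1 stood at 273, 287 and 263 CPM in control mice, against 1915, 2548 and 2038 CPM in stress mice. In tumor cells of the same mice it stood at 106, 135 and 101 CPM and at 299, 432 and 628 CPM. ECs had the highest level of Cmss1, Lars2, Gphn and Cdk8 among the 7 cell types with at least 20 cells in every mouse, in 6 of 6 mice.

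**Figure D1:**
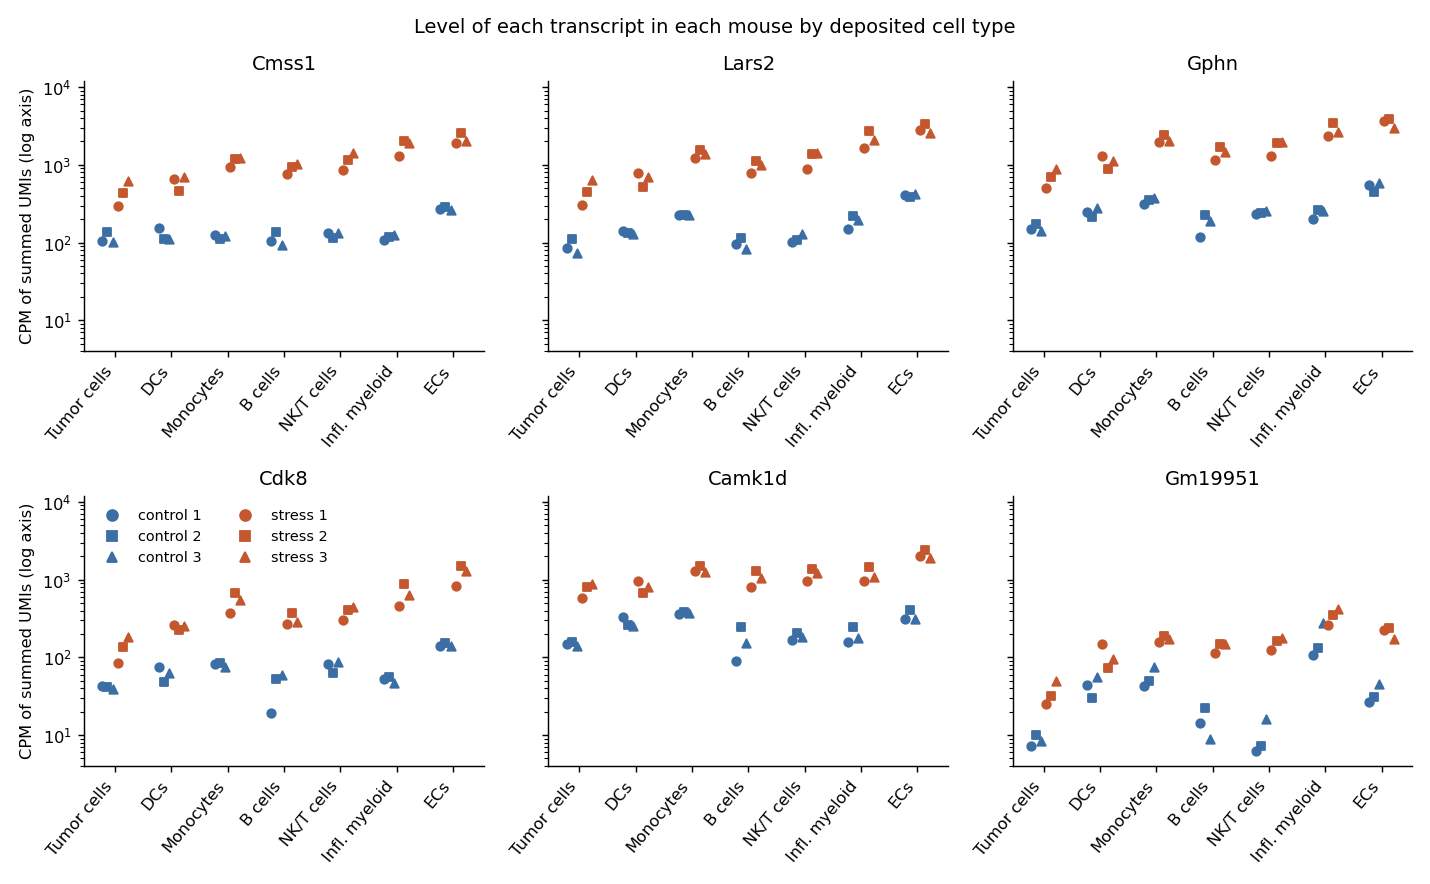
Level of each of the 6 transcripts (CPM of summed UMIs, log axis) in each control mouse (blue) and stress mouse (orange) for 7 deposited cell types. ECs are highest for Cmss1, Lars2, Gphn and Cdk8, tumor cells are lowest or next to lowest in every mouse for the members other than Cmss1, and Gm19951 is highest in inflammatory myeloid cells, where its groups overlap.

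The contrast of ECs with tumor cells of the same mouse pools both groups within each mouse, and was tested with edgeR's quasi-likelihood test over 17562 genes with the mouse as a block. All 6 members were higher in ECs, beside 36.8% of all genes tested that were called higher. Log2 differences were 2.34 ± 0.25 (SE of the fit to 6 mice) for Cdk8, 2.30 ± 0.16 for Lars2 and 2.16 ± 0.19 for Gm19951. They were 1.92 ± 0.16 for Gphn, 1.64 ± 0.20 for Cmss1 and 1.19 ± 0.10 for Camk1d. Adjusted p of this test lay between 2.56e-07 and 2.42e-05, and the median over all genes was -0.18. In control mice alone each member was also higher in ECs in 3 of 3 mice, from 1.08 to 1.37 for Cmss1 and from 1.69 to 1.84 for Cdk8, and the stress mice, with 1.70 to 2.68 and 2.83 to 3.44, add to the pooled values the difference on which the genes were chosen. With so large a background share, being higher in ECs is a common property. ECs held 3608 to 5832 UMIs per cell at the median and tumor cells 21971 to 32523, so cell type and depth differ together in this contrast.

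Inflammatory myeloid cells, which carried the fewest UMIs per cell (medians of 1156 to 1988), followed ECs for Cmss1, Lars2, Gphn and Cdk8 in the mean of stress mice but for none of these 4 in the mean of control mice, where monocytes stood above inflammatory myeloid cells for all 4. Lars2 stood there at 149, 218 and 196 CPM in control mice, against 1668, 2752 and 2066 CPM in stress mice. Monocytes and NK/T cells came next for Cmss1, with 1124 ± 155 and 1143 ± 271 CPM (SD, n = 3) in stress mice, which do not differ beyond their spread. Gm19951 departed from this order. Its level was highest in inflammatory myeloid cells, with 108, 133 and 275 CPM in control mice, against 257, 354 and 423 CPM in stress mice, and control mouse 3 lay above stress mouse 1.

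The groups did not overlap for 6 of 6 members in tumor cells, where 28.2% of all genes tested had every stress mouse above every control mouse, nor for 6 of 6 in ECs, where 12.5% did, and the choice of the genes fixes these counts. The ratio of the stress mean to the control mean was 3.25 to 5.18 in tumor cells, 6.15 to 8.36 in ECs and 2.004 to 14.9 in inflammatory myeloid cells. Tumor cells had a smaller ratio than ECs for each member. edgeR called 12.0% of all genes higher in stress mice in tumor cells and 0.106% in ECs, and in ECs 6 of the 15 genes called higher were the members, a count that the choice of the genes fixes.

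Counted as molecules per cell rather than as a share of the cell's RNA, the 6 together differed less between tumor cells and ECs than they did in CPM. Control mice held 15.2 ± 2.39 UMIs of the 6 per tumor cell and 10.9 ± 1.52 per EC (SD, n = 3), although an average tumor cell held 27438 UMIs of all genes and an average EC 6283. Each control mouse held more per tumor cell (12.4, 16.6 and 16.5) than per EC (9.63, 10.5 and 12.6). Stress mice held 79.0 ± 21.5 UMIs of the 6 per tumor cell and 78.0 ± 3.70 per EC. These means are close, but single stress mice ran both ways, with 57.4, 79.3 and 100.4 UMIs per tumor cell against 77.5, 81.9 and 74.6 per EC. The stress mean minus the control mean was 63.8 UMIs per tumor cell and 67.1 UMIs per EC. It was 39.2 UMIs per monocyte, 42.2 per NK/T cell, 29.5 per DC, 40.6 per B cell and 18.9 per inflammatory myeloid cell. HSCs (at least 6 cells per mouse) and M-MDSCs (at least 15) held 64.2 to 93.8 and 59.3 to 84.2 UMIs of the 6 per cell in stress mice, against 5.50 to 10.8 and 12.4 to 17.7 in control mice. In control mice the 6 ranged more widely over types in molecules than in CPM, with inflammatory myeloid cells at only 1.99 ± 0.25 UMIs per cell (SD, n = 3).

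Depth within a mouse and a cell type was examined next. Cells of each mouse and type were ordered by the UMIs per cell given with the annotation (nCount_RNA) and divided into 4 equal parts. The lowest part (shallow cells) was compared with the highest (deep cells). nCount_RNA equalled the total of the matrix, from which levels and medians were taken, in 68.3% to 76.7% of the annotated cells of a mouse. The part of this mismatch in the results was not tested. In tumor cells the medians were 12540 to 17602 UMIs in shallow cells and 34181 to 48197 in deep cells. Lars2 stood at 139.6, 284 and 149 CPM in shallow tumor cells of control mice and at 61.4, 67.2 and 52.0 CPM in deep ones. In stress mice it stood at 900, 1298 and 1803 CPM in shallow and at 157, 227 and 350 CPM in deep tumor cells. All 6 mice had the higher level in shallow cells.

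edgeR's test over 15004 genes, with the mouse as a block, called all 6 members higher in shallow tumor cells, beside 22.3% of all genes. Lars2 differed by 1.97 ± 0.15 on the log2 scale (SE), Gm19951 by 1.72 ± 0.18, Cdk8 by 1.42 ± 0.20, Gphn by 1.42 ± 0.17, Camk1d by 1.203 ± 0.142 and Cmss1 by 1.17 ± 0.22, with adjusted p between 1.17e-06 and 0.000842. Ordered by size of rise they ranked 24 to 203 of the 15004 genes, and the median gene differed by 0.04. These pooled values include the stress mice, on whose difference from control mice the genes were chosen. In control mice alone the log2 ratio of shallow to deep level was 0.23, 0.88 and 0.31 for Cmss1 and 1.17, 2.06 and 1.498 for Lars2, against 1.83 to 2.09 and 2.36 to 2.51 in stress mice. The pooled difference of Cmss1 thus rests largely on stress mice. Stress mice also add to the others, with 0.58, 1.18 and 0.55 against 2.06 to 2.22 for Cdk8 and 0.66, 1.27 and 0.79 against 1.93 to 2.13 for Gphn. For Camk1d it was 0.59, 1.11 and 0.67 against 1.66 to 1.87, and for Gm19951 0.63, 1.41 and 1.01 against 2.14 to 2.37. Each of the 36 ratios of shallow to deep level in tumor cells, 6 members in 6 mice, was above 1.

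ECs gave the same direction. Cmss1 stood at 408, 342 and 399.7 CPM in shallow ECs of control mice and at 215, 265 and 217 CPM in deep ones. In stress mice it stood at 4278, 7393 and 4323 CPM in shallow ECs and at 1155, 1551 and 1559 CPM in deep ones. Over 11611 genes, edgeR called the 6 members higher in shallow ECs, beside 25.0% of all genes, with log2 differences from 1.18 ± 0.19 (SE) for Camk1d to 1.53 ± 0.22 for Lars2 and adjusted p between 3.00e-05 and 0.000225. They ranked 50 to 305 of the 11611 genes, and again 36 of 36 ratios were above 1. The stress mice add to these pooled values as well, since the log2 ratio over the 6 members was 0.19 to 1.24 in control mice against 1.13 to 2.51 in stress mice. Other types, which were not tested, were less uniform, with 35 of 36 ratios above 1 in monocytes, 33 of 36 in NK/T cells and 32 of 36 in inflammatory myeloid cells, where Cmss1 was at 0.869 and 0.703 in control mice 1 and 2. That Cmss1 is high in the shallow EC cluster 15 of stress mice was known when the genes were chosen, so the EC result is not independent for that gene. Lars2, Gphn, Cdk8 and Gm19951 also had their greatest ratio of stress to control mean in cluster 15 (16.3, 14.9, 31.4 and 19.7). The pooled EC test is therefore not independent of the choice of the genes for these members either. Mitochondrial transcripts also took a larger share in shallow cells, with medians of 3.89% to 6.64% in shallow and 3.20% to 5.36% in deep tumor cells, and their part in the result was not tested.

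The 5 genes with the greatest rise in shallow tumor cells were Zfp791 (log2 difference 3.54 ± 0.24, SE), Pkhd1l1, ENSMUSG00000121456, Snx31 and Lrrc23, which encode a zinc finger protein, a fibrocystin-like membrane protein, a gene without a symbol, a sorting nexin and a leucine-rich repeat protein. In shallow ECs they were Fmo2 (3.52 ± 0.28), a monooxygenase, Pcdh9, Serpina1e, Alb and ENSMUSG00000121342, of which Serpina1e and Alb are secreted by hepatocytes.

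The molecules per cell show the depth relation in another way. In control mice, tumor cells held 8.58, 13.4 and 11.9 UMIs of the 6 per shallow cell and 16.7, 20.4 and 22.04 per deep cell, so that more RNA came with more of the 6. In stress mice they held 56.7, 78.2 and 96.8 UMIs per shallow cell and 56.6, 73.5 and 100.6 per deep cell. The number of molecules of the 6 per tumor cell was thus nearly level in sum across depth in each stress mouse, with ratios of shallow to deep of 1.001, 1.06 and 0.962. Members differed within that sum, since the ratio was 1.49, 1.43 and 1.199 for Lars2 and 1.31, 1.35 and 1.05 for Gm19951 but 0.831, 0.915 and 0.738 for Camk1d. Total depth was far from level, as shallow cells had 0.233 to 0.259 of the total UMIs of deep cells.

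**Figure D2:**
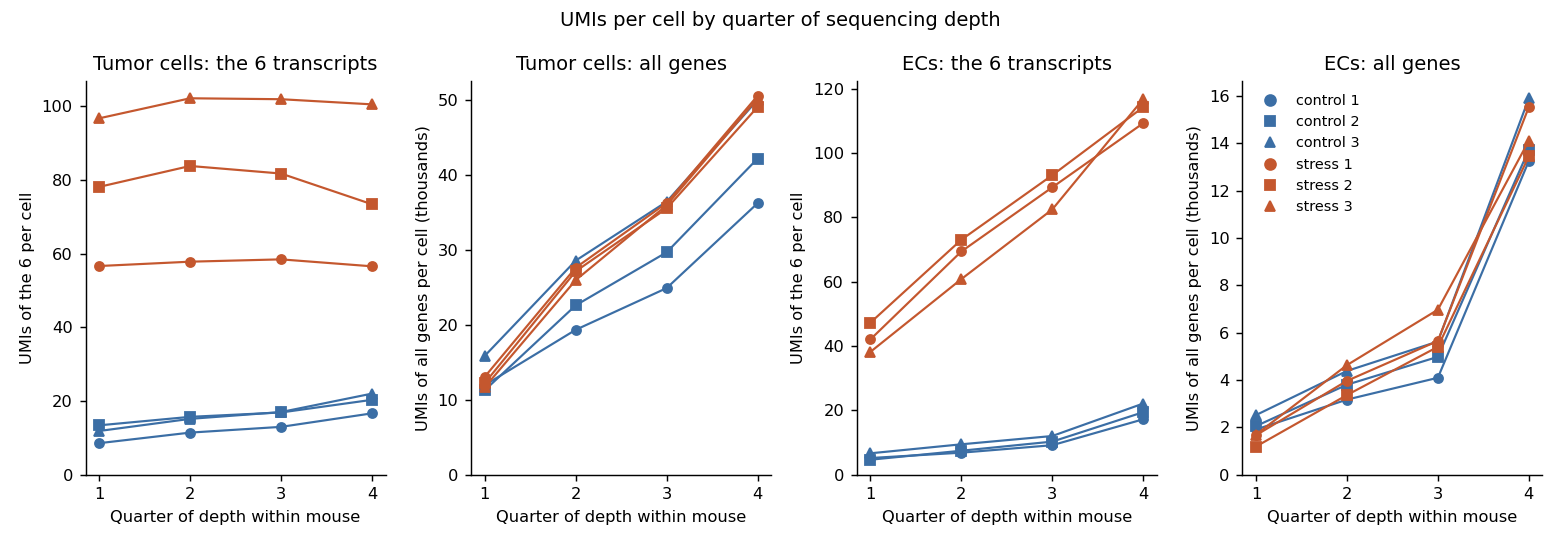
UMIs per cell of the 6 transcripts together and of all genes (in units of 1000), in 4 equal parts of the cells of each mouse ordered by depth, for tumor cells and ECs; lines join the values of 1 mouse, control in blue and stress in orange. In tumor cells of stress mice the 6 stay nearly level (56.7 to 56.6, 78.2 to 73.5 and 96.8 to 100.6 from the lowest to the highest part), whereas in ECs they rise.

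The stress mean minus the control mean in tumor cells was 65.9, 67.2, 65.1 and 57.2 UMIs of the 6 per cell from the lowest to the highest part of depth. By gene it was 11.9 to 9.60 UMIs for Cmss1, 13.8 to 9.66 for Lars2, 18.4 to 15.6 for Gphn, 3.48 to 2.43 for Cdk8, 17.3 to 19.2 for Camk1d and 1.004 to 0.722 for Gm19951, lowest part to highest. Camk1d was the only member with a greater difference in the highest part than in the lowest. ECs did not show this level course, since the difference there was 37.0, 59.8, 77.8 and 93.8 UMIs per cell. Shallow ECs of stress mice held 42.1, 47.3 and 38.2 UMIs of the 6, and deep ECs 109.3, 114.3 and 116.8.

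The ratio of shallow to deep level was greater in stress mice for all 6 members in both cell types. In tumor cells it was 1.18, 1.84 and 1.24 in control mice, against 3.57, 3.98 and 4.27 in stress mice for Cmss1, and 1.51, 2.30 and 1.48 against 4.22, 4.72 and 4.38 for Cdk8. Lars2 had the highest control values, 2.27, 4.23 and 2.86, against 5.75, 5.72 and 5.15 in stress mice. The groups did not overlap for 6 of 6 members in tumor cells, where 12.0% of genes had every stress mouse above every control mouse in this ratio, nor for 6 of 6 in ECs, where 6.21% did. Other types were less uniform. The groups were apart for 4 of 6 members in monocytes, 2 of 6 in NK/T cells and 2 of 6 in inflammatory myeloid cells, for which no share over all genes was computed. These are the libraries and the contrast on which the genes were chosen, so nothing is read from these counts.

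**Figure D3:**
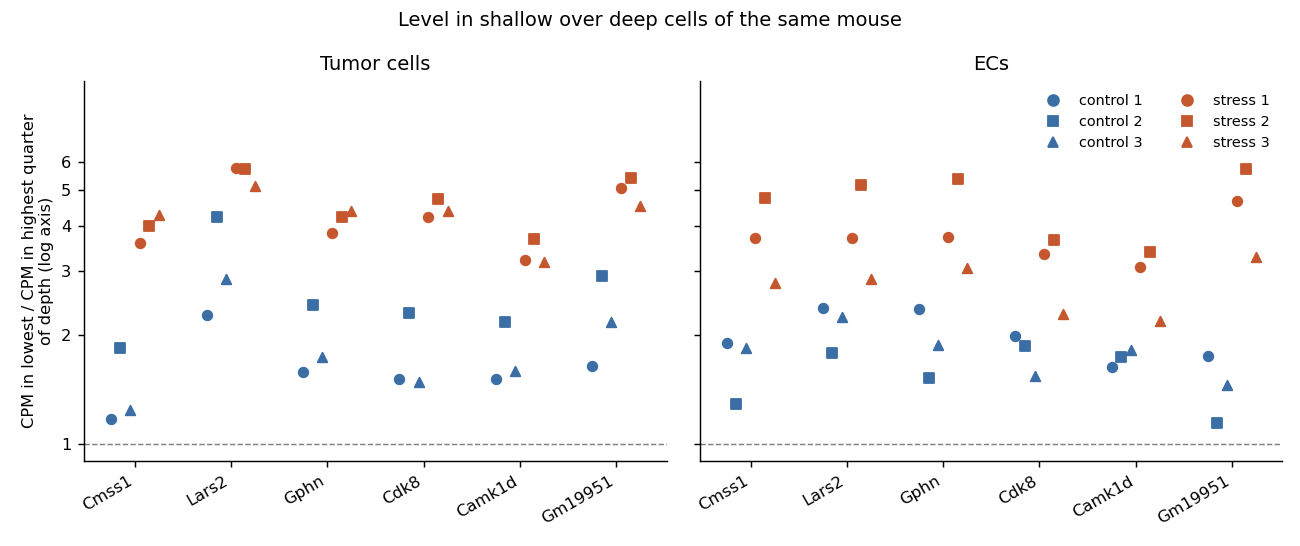
Level (CPM) in the shallowest over that in the deepest of 4 equal parts of tumor cells (left) and ECs (right), for each member and mouse, on a log axis; the dashed line marks a ratio of 1. All 36 ratios per cell type are above 1, and the stress mice (orange) lie above the control mice (blue) for every member.

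On the log2 scale of the level, the stress difference was smaller in deep cells. With deep tumor cells alone, the log2 difference of stress and control mice was 1.11 to 1.97 for the 6 members, and with shallow tumor cells alone it was 2.39 to 2.80. In ECs it was 2.04 to 2.80 and 3.18 to 3.89. In UMIs of the 6 per cell, the difference was 57.2 in deep and 65.9 in shallow tumor cells. In ECs it was greater in deep cells, with 93.8 against 37.0 in shallow ones.

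Clusters of the annotation divide the cell types further. Levels were compared in 23 clusters that held 20 or more cells per mouse. In the mean of stress mice the 6 together stood highest in EC cluster 15, with 15812, 28626 and 23575 CPM against 1625, 1055 and 1574 CPM in control mice, and its cells are shallow, with medians of 858 to 1456.5 UMIs. Tumor cluster 17, also shallow with medians of 1369 to 2877 UMIs, stood at 20821, 14618 and 17690 CPM against 1660, 2301 and 1796 CPM. Tumor cluster 1, with medians of 28938 to 41818 UMIs, stood at only 1099, 1783 and 2116 CPM against 397, 429 and 390 CPM. The high level of cluster 15 in stress mice was known for Cmss1 when the genes were chosen, and nothing is read from it. In control mice cluster 15 lay below the level over all ECs of the same mouse (1717, 1707 and 1772 CPM), although its cells are shallower.

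Over the 25 to 27 clusters of a mouse, the correlation of the level of the 6 with the median depth of the cluster was -0.64 to -0.47 in control mice, against -0.89 to -0.73 in stress mice. It was negative for each member in every mouse, from -0.17 for Cmss1 in a control mouse to -0.93 for Gm19951 in a stress mouse. Clusters of a mouse share its library, so these values are descriptive. Inflammatory myeloid cluster 0, shallow with medians of 1156 to 1988 UMIs, stood at 776, 1038 and 1076 CPM in control mice. Among ECs, cluster 15 departs from the negative trend in control mice. Among tumor cells cluster 21 departs from it, with medians of 8003 to 12444 UMIs and a control level of 388, 457 and 327 CPM, as low as that of the deep clusters, and a stress level of 3572, 6010 and 6489 CPM.

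The members were also followed in the 2580 barcodes that the annotation leaves out. Barcodes with over 20% mitochondrial UMIs, 248 to 460 per mouse, are usually taken for damaged cells. Cmss1 stood there at 952, 1018 and 808 CPM in control mice, against 2247, 2678 and 4187 CPM in stress mice, against 116, 143 and 111 CPM and 439, 680 and 901 CPM in annotated cells. Gphn stood there at 1204, 1297 and 1234 CPM and at 4058, 5403 and 5342 CPM. Each member was higher in these barcodes than in annotated cells in 6 of 6 mice.

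**Figure D4:**
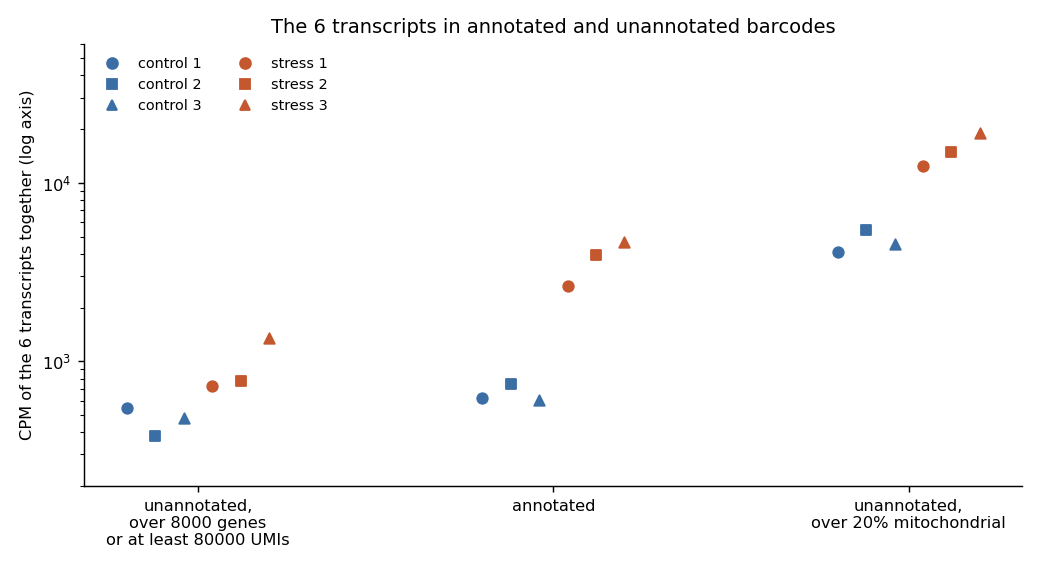
Level of the 6 transcripts together (CPM, log axis) in annotated cells and in 2 classes of barcodes without annotation, for each control mouse (blue) and stress mouse (orange). The 1 to 5 other barcodes per mouse without annotation are not shown. Barcodes with over 20% mitochondrial UMIs lie above annotated cells, and barcodes with over 8000 genes or at least 80000 UMIs lie below them, in every mouse.

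edgeR's test of these barcodes against annotated cells, over 17499 genes with the mouse as a block, gave log2 differences of 2.97 ± 0.16 (SE) for Lars2, 2.74 ± 0.12 for Cmss1, 2.68 ± 0.13 for Gphn, 2.42 ± 0.13 for Gm19951, 2.36 ± 0.12 for Cdk8 and 2.23 ± 0.13 for Camk1d, with adjusted p of at most 2.44e-18. These SE and p-values come from the fit and do not measure the spread over the 6 mice. The ratio for Lars2 was 7.89, 10.8 and 13.2 in control mice, against 5.61, 3.54 and 4.60 in stress mice. All 6 were called higher, beside 10.6% of all genes. Annotated cells of all types were summed and the cell types of these barcodes are not given. Cell type, depth and mitochondrial share can therefore differ together in this contrast. For the 6 together the ratio to annotated cells was 6.63, 7.33 and 7.42 in control mice, against 4.68, 3.79 and 4.06 in stress mice. In molecules, a barcode of this class held 48.4, 48.5 and 72.2 UMIs of the 6 in stress mice, against 57.6, 66.2 and 66.0 in annotated cells, although its median total was 2300 to 2543.5 UMIs against 7166 to 20478. In control mice it held 8.75, 13.2 and 15.9 UMIs of the 6, against 11.04, 11.6 and 12.2.

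Barcodes with over 8000 genes or at least 80000 UMIs, 11 to 122 per mouse, had less of the 6 in CPM than annotated cells, at 0.512 to 0.878 of the annotated level in control mice, against 0.196 to 0.291 in stress mice. With all unannotated barcodes in 1 sum, 3 members were called higher, beside 7.99% of 18258 genes, namely Cmss1 (0.73 ± 0.21 on the log2 scale, SE, adjusted p = 0.0159), Gphn (0.60 ± 0.19, 0.0269) and Lars2 (0.74 ± 0.25, 0.0421). The ratio to annotated cells was higher in control mice, where the one for Cmss1 was 3.82, 2.19 and 2.05, against 1.43, 0.696 and 0.990 in stress mice. This sum mixes both classes, whose levels of the 6 together lay on opposite sides of annotated cells, with 1 to 5 other barcodes per mouse. Barcodes with over 8000 genes or at least 80000 UMIs (medians of 67665 to 83726.5 UMIs) numbered 11, 34 and 72 in control mice, against 74, 122 and 92 in stress mice. The part of this mix in the calls and ratios was not tested. Lars2 and Gphn lost the call without control mouse 1, 2 or 3 or stress mouse 1, and Cmss1 lost it without control mouse 2 (adjusted p = 0.0753). Hbb-bt, Hba-a1, Hba-a2 and Hbb-bs, which encode hemoglobin, had the largest rises in this comparison.

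Among tumor cells split in the same way by their mitochondrial share, the level of the 6 in the highest part over that in the lowest was 1.15, 1.47 and 1.35 in control mice, against 1.48, 1.18 and 1.44 in stress mice. In ECs it was 0.732, 0.840 and 0.640 and 0.599, 0.816 and 0.939. A high mitochondrial share thus went with more of the 6 together in tumor cells and with less in ECs, in 6 of 6 mice each. Single members kept this direction except Cmss1 in tumor cells of control mouse 1 (0.932) and Camk1d in ECs of control mouse 1 (1.13) and stress mouse 3 (1.08).

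Co-variation of the members was described over 163 sums of counts, 1 for each mouse, cell type and part of depth with at least 20 cells, after centring within mouse and cell type. Pearson's r of log2(CPM + 1) between members was 0.572 to 0.946 over the 15 pairs (median 0.897). Gphn was the member most like the mean of the other 5 (r = 0.939) and Gm19951 the least (0.616). The 10 genes most like the mean of the 6, among 8990 genes with a mean of at least 10 CPM, were Malat1 (r = 0.772), Crebrf (0.770), Lyst (0.758), Erbin (0.738), Rsrp1 (0.737), Txnip (0.734), Arid5b (0.733), Casp4 (0.724), Phf21a (0.712) and Tet2 (0.712), and the median gene had r = -0.16. Malat1 is a long noncoding RNA that stays in the nucleus. Depth differs among these points and points of 1 mouse share a library, so the values are descriptive.

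Across single cells the 6 went together in stress mice, and more weakly or hardly at all in control mice. Each cell was thinned to 1000 UMIs, so that the counted total was the same in each, and 131 tumor cells of control mice and 193 of stress mice with fewer UMIs were left out. The median r over the 15 pairs was 0.067, 0.278 and 0.117 across tumor cells of control mice and 0.536, 0.644 and 0.678 across those of stress mice. In ECs it was 0.044 to 0.085 and 0.283 to 0.424, and in monocytes 0.025 to 0.067 and 0.250 to 0.355. In inflammatory myeloid cells it was 0.013, -0.006 and 0.011 in control mice, against 0.127, 0.250 and 0.179 in stress mice. Correlations of other gene pairs across cells were not computed. Counts of the 6 were also lower in control mice, and the part of sparse counts in their lower r was not tested. Thinned cells still differ in their original depth, and thinned shares of tumor cells with a Cmss1 UMI were 50.2%, 58.9% and 70.1% in the shallowest part of stress mice and 19.7%, 21.6% and 33.7% in the deepest, so r across cells includes the relation with depth.

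**Figure D5:**
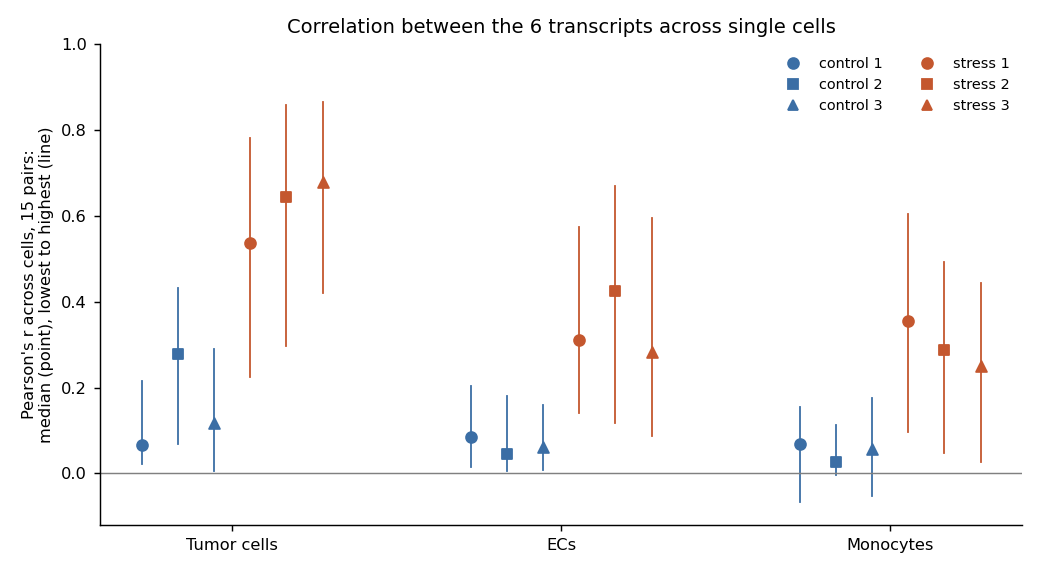
Pearson's r between the 6 transcripts across single cells thinned to 1000 UMIs, for each mouse and 3 cell types; points are the median of 15 pairs and lines run from the lowest to the highest pair. Stress mice (orange) have higher medians than control mice (blue) in all 3 cell types, up to 0.678 in tumor cells.

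After thinning, 10.5% to 13.9% of tumor cells of control mice and 29.95% to 48.3% of those of stress mice held a Cmss1 UMI. Before thinning the shares were 83.6% to 89.98% and 98.97% to 99.03%. For Gphn the thinned shares were 14.0% to 16.9% and 41.3% to 58.5%, and for Gm19951 they were 0.964% to 1.24% and 4.31% to 7.85%. Thinned ECs held Cmss1 in 25.7% to 27.7% and in 84.9% to 90.3% of cells. No cell type here is known to lack these transcripts, so the share that free RNA alone would give could not be set beside them.

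Genes of the members' own pathways were compared over depth in the same tests, in which 22.3% of all genes were higher and 23.4% lower in shallow tumor cells, and 25.0% were higher and 3250 of 11611 lower in shallow ECs. Of 12 other genes of small subunit biogenesis, the process to which Cmss1 is linked, 0 were higher and 11 lower in shallow tumor cells, and 0 were higher and 9 lower in shallow ECs. Ncl, which encodes nucleolin, fell by 0.66 on the log2 scale in shallow tumor cells and fell by 0.73 in shallow ECs. Of 16 other mitochondrial aminoacyl-tRNA synthetases, the family of Lars2, 0 were higher and 3 lower in shallow tumor cells, and of 15 tested in ECs 0 were higher and 1 lower.

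In the Mediator kinase module, Cdk19, the paralog of Cdk8, was higher in shallow tumor cells (0.26 ± 0.06 on the log2 scale, SE) and Ccnc, the cyclin partner of Cdk8, was lower (fell by 0.26), with the other 4 of the 6 genes not called. In ECs 1 of the 6 was higher and Ccnc was lower. Of 7 calmodulin-dependent kinase genes tested beside Camk1d, 2 were higher and 0 lower in shallow tumor cells, and 2 were higher and 2 lower in shallow ECs. Of the molybdenum cofactor and gephyrin partner genes beside Gphn, 3 of 9 were higher and 2 lower in tumor cells, where 22.3% of all genes were higher. In ECs, where 25.0% of all genes were higher, 4 of 8 were higher and 2 lower. Median log2 differences of these 5 lists in shallow tumor cells lay between -0.38 and 0.20, against 0.04 over all genes and 1.17 to 1.97 for the members.

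Among the lists that were not pathways, Malat1 was 0.60 ± 0.07 higher in shallow tumor cells on the log2 scale (adjusted p = 2.50e-05), and 3 of 6 nuclear-retained RNAs tested were higher and 1 lower. In shallow ECs 0 of 6 were higher and 2 lower, with Malat1 at 0.34 ± 0.21 (adjusted p = 0.176). Transcripts of the mitochondrial genome were higher in 10 of 13 cases in shallow tumor cells and in 0 of 13 in shallow ECs. Gm15564, the ribosomal RNA gene model that shares 72 bases with Lars2, was higher in shallow tumor cells (1.27 ± 0.19, adjusted p = 0.000146), in ECs against tumor cells (0.88 ± 0.21, 0.00232) and in barcodes with over 20% mitochondrial UMIs (1.35 ± 0.49, 0.029). It stood at -0.17 ± 0.35 and was not called in all unannotated barcodes, and had too few counts to be tested in shallow ECs. The part of this shared stretch in the Lars2 counts was not tested. Of the genes that overlap a member, 2 had enough counts, of which Filip1l was higher in shallow tumor cells (0.27 ± 0.09) and Gm48226 in shallow ECs (0.69 ± 0.22). Hemoglobin transcripts, from red cells, were higher in shallow tumor cells for 2 of 2 tested (median log2 difference 3.50) and lower in shallow ECs for 2 of 2 (median -5.69), and their part in the members' result was not tested.

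The same lists were also compared between stress and control mice. In tumor cells 1 of 12 small subunit biogenesis genes was higher and 2 lower, 1 of 16 synthetases was higher and 4 lower, and 0 of 6 Mediator kinase genes were higher and 1 lower. Of the calmodulin-dependent kinases 0 of 7 were higher and 2 lower, and of the gephyrin and molybdenum cofactor genes 1 of 9 was higher and 2 lower, beside 12.0% of all genes called higher and 9.46% called lower. In ECs, where 15 of all 14090 genes were called higher and 15 lower, the median log2 differences of these 5 lists lay between -0.12 and 0.10. Of the 13 transcripts of the mitochondrial genome, 8 were higher in stress mice in tumor cells and 2 in ECs, and 0 were lower.

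Signs of RNA quality and of other RNA moved with the stress difference of the members in part. Mitochondrial transcripts took 3.71%, 3.99% and 4.70% of the UMIs of tumor cells in control mice, against 5.46%, 5.72% and 5.41% in stress mice, and 2.76%, 3.20% and 2.86% of those of ECs against 3.71%, 4.21% and 3.23%, so that every stress mouse lay above every control mouse in both types. Malat1 stood in tumor cells at 3555, 3566 and 3308 CPM against 4806, 4338 and 6944 CPM, again with every stress mouse higher, as for 28.2% of all genes, and edgeR did not call it (0.48 ± 0.18 on the log2 scale, SE, adjusted p = 0.0882). In ECs its groups overlapped (0.15 ± 0.19, adjusted p = 0.732). Of 7 nuclear-retained RNAs tested in tumor cells, Kcnq1ot1 was higher (0.57 ± 0.10, adjusted p = 0.0103) and 0 were lower, and of 6 in ECs 0 were called. Gm15564 stood at 1.06 ± 0.32 in tumor cells (adjusted p = 0.0527) and at 1.68 ± 0.27 in ECs (0.0845), not called in either. Filip1l, which overlaps Cmss1, was higher in tumor cells (0.53 ± 0.12, adjusted p = 0.0224) and was not called in ECs, and Gm48226, which overlaps Gphn, was called in neither. Hemoglobin transcripts together stood at 0.788 to 33.9 CPM in tumor cells of control mice, against 0.376 to 1.78 CPM, and at 4.02 to 435 CPM in ECs, against 95.1 to 332 CPM, and 0 of 4 were called in either type. The part of these transcripts in the members' difference was not tested.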

How the data were processed

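For each mouse the authors deposited a matrix of UMI counts, not normalized (Cell Ranger, build mm10 and Seurat per the labels), and a table with the mouse, cluster, cell type and nCount_RNA of each annotated cell. The gene annotation used for counting is not given in the sources used here. Sums of counts were formed for each mouse by cell type, by 4 equal parts of nCount_RNA and over unannotated barcodes, and edgeR 4.0.16 (R 4.3.3) tested them (quasi-likelihood test after filterByExpr and TMM, Benjamini-Hochberg over all genes tested, threshold 0.05). Within-mouse contrasts had the mouse as a block. The SE of a log2 difference was obtained from its size and the F statistic of the fit. It does not measure the spread over mice. DESeq2 1.42.0, RLE, no filter, other splits of depth, totals without the members, and each mouse left out were alternatives. Tests on simulated data for shallow against deep ECs (11509 genes) recovered 73 of 85 genes changed by 1 on the log2 scale, with 5 false calls. For stress against control in ECs (13919 genes) they recovered 93 of 104, with 13 false calls. Simulated counts had a fixed dispersion and no differences between mice beyond library size, so these numbers give no error rate for the real contrasts. Of the 34099 gene identifiers, 32061 matched GENCODE M21. Transcripts were aligned with BLAST 2.17.0, and introns were not searched. Per the study's methods, doublets had been removed with Scrublet before annotation. No further doublet filter was applied here, and unannotated barcodes were used as deposited. Correlations used a pseudocount of 1.

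The 6 members and all gene lists were chosen with earlier results of these data known. Other genes named are those of the fixed lists, the 5 with the largest rise past the threshold in 6 of 6 mice in each within-mouse test (1 of them is not reported here), and the 10 most correlated with the members. The labels do not say that mice of the same number belong together. Precision is limited by 3 mice per group.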

Additional observations from a re-analysis of the deposited data

Results flagged for a closer look

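The ratio of shallow to deep level was greater in stress mice than in control mice for the 6 members, and a term for this difference was fitted over all genes with edgeR, with the mouse as a block. The genes were chosen on the stress difference in these same libraries, so the term is no test of the members. Its values are given for all 6 as a description, without calls, and nothing is read from them. They are log2 differences, stress minus control, of the difference between shallow and deep cells. In tumor cells the value was 1.41 ± 0.14 (SE) for Cmss1, 1.27 ± 0.14 for Cdk8, 1.09 ± 0.17 for Gm19951, 1.049 ± 0.136 for Gphn, 0.86 ± 0.14 for Camk1d and 0.79 ± 0.17 for Lars2. In ECs the value was 1.78 ± 0.27 for Gm19951, 1.27 ± 0.29 for Cmss1, 1.19 ± 0.31 for Gphn, 0.97 ± 0.30 for Lars2, 0.88 ± 0.27 for Cdk8 and 0.84 ± 0.27 for Camk1d. Without any single mouse, the values ran from 0.60 (Lars2) to 1.55 (Cmss1) in tumor cells and from 0.67 (Camk1d) to 1.98 (Gm19951) in ECs. The cause was not tested.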

How the results depend on the processing

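All 6 members stayed higher and called in shallow tumor cells and shallow ECs under all 13 alternatives, with log2 differences of 0.63 to 2.12 and 0.67 to 1.70, and in ECs against tumor cells under all 10 (1.10 to 2.51). Every alternative kept stress mice, on whose difference the genes were chosen. The alternatives therefore cannot show how far these calls rest on that choice. Without the replicate block, the mouse term, 0 of these calls changed, but Cmss1, Lars2 and Gphn lost theirs in all unannotated barcodes, where the number of genes called fell from 4232 to 2067. Gm19951 changed sign there without control mouse 1 (-0.12) and control mouse 2 (-0.05), within a range of -0.12 to 0.39 over single mice left out. Numbers of genes called depended on the setting. Between stress and control mice, in tumor cells 4041 genes were called, 1907 with deep and 879 with shallow cells alone, 1191 to 5790 without 1 mouse, and 5088 with a replicate block on the mouse number; in ECs the 30 became 107 without a filter, 425 in DESeq2, 131 with the replicate block and 3 to 46 without 1 mouse. Shallow against deep tumor cells gave 6853 genes, and 4240 with parts of depth taken within clusters. The interaction of depth and group gave 21 genes in tumor cells (389 without a filter, 1 to 162 without 1 mouse) and 87 in ECs (323, and 19 to 1729). The median r of the pairs was 0.984 over 10 equal parts of depth in tumor cells. Thinned to 3000 UMIs, it was 0.517 in place of 0.619 in tumor cells of stress mice and 0.150 in place of 0.154 in those of control mice. In control mice it was 0.130 in place of 0.063 in ECs and 0.086 in place of 0.050 in monocytes. In stress mice it was 0.374 in place of 0.339 in ECs and 0.359 in place of 0.298 in monocytes. The causes were not tested. Deviations of mice from their group mean were correlated over genes between mice of number 1, 2 and 3. Pearson's r was 0.62, 0.48 and -0.22 in tumor cells, 0.61, 0.46 and 0.05 in ECs and 0.51, 0.45 and 0.16 in monocytes. It was 0.66, 0.11 and 0.48 in inflammatory myeloid cells and between -0.004 and 0.28 in the other types compared. The labels do not pair the mice, so the numbers are not read as pairs, and whether mice of a number share a batch was not tested.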
